A study of Mus musculus with 72 samples.

Results

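Srebf2, Scap, Insig1, Insig2, Stard4, Npc1 and Npc1l1, 7 genes that control the sterol-sensing transcription factor SREBP2 or carry cholesterol into and through the cell, were followed in liver, kidney, heart and brain of mice given coenzyme Q10. The members were the probe sets (groups of short probes against 1 transcript) whose gene symbol on the platform is one of these names. There were 13 such probe sets among the 45037 probe sets of the array without controls, or 7 genes among 18193 genes with a probe set of their own. Insig2 and Stard4 had 3 probe sets each, Srebf2 and Scap 2 each, and the other genes 1. Each gene is described by its brightest probe set over all arrays, and values of other probe sets are given by their ID. Those of Srebf2, Insig2 and Stard4 did not always move together, so a result for one of these genes holds for the probe set it is given for.

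The mice were female SAMP1 animals, a senescence-accelerated prone strain, and no other strain was included. From 4 weeks of age they received QH2, the reduced form of coenzyme Q10, or Q10, its oxidised form, at 500 mg per kg body weight a day as worked out from food intake, or a control diet. They were killed after 14 or 6 months on the diet, at an age of 15 or 7 months by the treatment protocol. Each of the 24 groups of tissue, diet and duration had 3 arrays, 72 in all, and by the series' design each came from 1 of 3 mice in the group. Mice shared cages of 3 to 6 with the grouping unchanged throughout, and which cages held which diet is not stated in the labels. A difference between 14 and 6 months cannot be told apart from a difference of age.

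Cells keep their sterol level steady through a loop in the endoplasmic reticulum. SCAP escorts SREBP2, the product of Srebf2, to the Golgi, where proteases release its active part into the nucleus, and INSIG1 and INSIG2 hold SCAP back when sterols are plentiful. Nuclear SREBP2 raises transcription of the enzymes of cholesterol synthesis and of Insig1, Stard4 and Srebf2 itself, so that transcript levels of these genes are used as a readout of the pathway. STARD4 moves sterol between membranes in the cytosol, NPC1 exports cholesterol taken up with lipoproteins from the lysosome, and NPC1L1 takes up cholesterol from the gut lumen in the small intestine of the mouse. In liver the pathway sets synthesis against dietary supply, while the brain makes its own cholesterol behind the blood-brain barrier.

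The stretches before the starts of Srebf2 and Insig1 are shown because these genes carry the sterol readout and are read beside the liver values. They are the 250 bases before the annotated start in the RefSeq promoter table (GRCm38.p6), chr15:82147019-82147268 and chr5:28071162-28071411, both on the plus strand. Capitals mark matches on either strand to TCACNCCA, a form of the sterol regulatory element, to the motif CCAAT, to the motif GGGCGG, known as the GC box, or to the motif CACGTG, known as the E box.
Srebf2: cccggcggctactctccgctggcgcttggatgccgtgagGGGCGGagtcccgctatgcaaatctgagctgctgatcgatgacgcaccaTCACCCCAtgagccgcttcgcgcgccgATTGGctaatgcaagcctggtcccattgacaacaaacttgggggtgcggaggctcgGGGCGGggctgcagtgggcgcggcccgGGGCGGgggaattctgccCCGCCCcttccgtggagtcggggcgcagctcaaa
Insig1: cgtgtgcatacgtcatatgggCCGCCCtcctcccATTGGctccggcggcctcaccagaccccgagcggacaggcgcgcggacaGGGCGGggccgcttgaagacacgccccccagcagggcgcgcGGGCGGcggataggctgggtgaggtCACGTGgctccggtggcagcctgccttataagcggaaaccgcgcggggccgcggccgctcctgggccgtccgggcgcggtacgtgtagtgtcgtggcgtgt
The TCACNCCA match before Srebf2 reads TCACCCCA and lies 162 to 155 bases before the start, with a CCAAT match on the opposite strand at 135 to 131. TCACNCCA is in 3.67% of the 32851 promoters of this length in the table, while 33.8% hold CCAAT, 32.7% hold GGGCGG and 6.02% hold CACGTG. Insig1 has no TCACNCCA match in these letters, 1 match to CCAAT, 3 matches to GGGCGG and 1 match to CACGTG at 101 to 96 bases before the start, and no 2 matches to different motifs overlap in either stretch. Of the 7 genes 5 are in the table, and among the other 3 (Scap with 2 starts, Insig2 with 3 and Npc1l1 with 1) no stretch holds TCACNCCA. The motifs were chosen with results of these data known, and a match is a description of the sequence only.

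Values are the authors' signals after quantile normalisation, within a tissue unless the all-array scale is named, and differences are on the log2(signal + 1) scale with limma's moderated standard error (SE). A probe set was called at a Benjamini-Hochberg adjusted p under 0.05 over the 27022 probe sets tested in each comparison. Mean deposited signals per array spanned 84.6 to 172 (liver), 132 to 262 (kidney), 108 to 279 (heart) and 140.5 to 279 (brain), with the older arrays the brighter ones on the whole. The defining markers of each labelled tissue were highest in it: kidney tubule markers summed to 32502 or more in kidney and at most 88.9 in the other tissues, and cardiomyocyte markers to 57582 or more in heart and at most 69.8 elsewhere. Hepatocyte markers summed to 47937 or more in liver, but also to 8137 to 13309.9 in brain, and neuron markers to 19808 or more in brain and at most 281 elsewhere. The number of arrays limits the precision.

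On the all-array scale, and by brightest probe sets, the liver had the highest level of Insig1, Stard4, Npc1 and Scap, while Srebf2 was highest in brain. The other Srebf2 probe set was highest in liver. Insig1 averaged 1359.8 ± 343 in liver, 179 ± 42.2 in brain, 162 ± 46.4 in kidney and 103 ± 16.3 in heart (SD, n = 18 each). Liver stood 12.8-fold above heart, and the lowest liver array, at 658, lay above the highest array of any other tissue, at 281 in kidney. Brain and kidney, the middle neighbours, did not pass the test of their difference (adjusted p = 0.0925 by limma). Stard4 averaged 1023 ± 182 in liver, 427 ± 74.0 in kidney, 155 ± 43.1 in brain and 71.3 ± 11.4 in heart, a 14.1-fold span, and all neighbours in this order differed.

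Npc1, the lysosomal exporter, averaged 488 ± 74.0 in liver, 137 ± 18.4 in heart, 73.4 ± 11.8 in brain and 49.6 ± 11.7 in kidney, again with all neighbours apart. Scap, the escort protein, ran 700.4 ± 153 in liver, 352 ± 33.2 in kidney, 284 ± 33.3 in brain and 203 ± 28.4 in heart. Insig2 averaged 595 ± 143 in liver and 551 ± 69.1 in heart, which did not pass the test (adjusted p = 0.215 by limma), then 379 ± 33.5 in brain and 295 ± 29.0 in kidney. Its other probe sets were higher in liver than in heart, by 0.42 ± 0.086 for 1417980_a_at (limma adjusted p = 1.7e-05) and 0.87 ± 0.07 for 1417982_at (limma adjusted p = 4.6e-17). Kidney and brain, called for the brightest Insig2 probe set, were not called for 1417980_a_at (0.05 ± 0.086, limma adjusted p = 0.587). Srebf2, the transcription factor, averaged 236 ± 59.1 in brain, 167 ± 36.3 in liver, 144 ± 17.9 in kidney and 117 ± 20.6 in heart, and the log2 difference of liver against brain was -0.49 ± 0.069 (limma adjusted p = 4.3e-09). Its probe set 1426744_at averaged 145 ± 39.8 in liver and 118 ± 16.8 in brain, the opposite order, with a log2 difference of 0.26 ± 0.094 (limma adjusted p = 0.00909). The place of Srebf2 in liver and brain thus differs between its probe sets.

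The 6 genes tested differed in 6 of 6 pairs each except Insig1 and Insig2 with 5, against a background of called probe sets of 71.7% for liver against kidney, 80.8% for liver against heart, 85.7% for liver against brain, 78.4% for kidney against heart, 81.8% for kidney against brain and 85.9% for heart against brain. A call between tissues was therefore the common case for any probe set. With the values as deposited, where liver arrays as a whole were dimmer (median of all probe sets -0.84 against kidney), Srebf2 lay lower in liver than in kidney (log2 difference -0.71, against 0.20 ± 0.069 here, a call lost without replicate 1 or 2), and the other turns of direction stand in the closing section. Npc1l1, the intestinal sterol transporter, was dim everywhere. Its lowest and highest signals were 2.07 to 42.8 for liver, 10.2 to 24.6 for brain, 0.997 to 26.5 for heart and 1.23 to 26.7 for kidney. Its mean lay at percentile 47.2, 45.6, 45.5 and 37.0 of all probe sets in these 4 tissues. Its level over all 72 arrays did not pass the filter for the tissue comparison, so its order has no test.

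**Figure D1:**
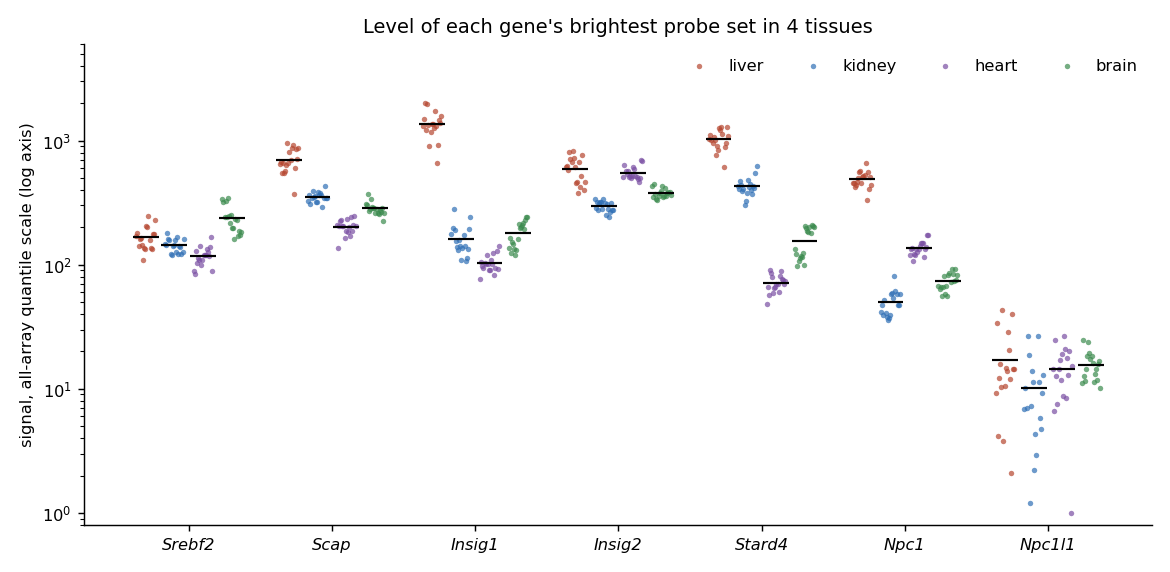
Signal of the brightest probe set of each of the 7 genes in liver, kidney, heart and brain, on the all-array quantile scale (log axis); points are the 18 arrays of a tissue and lines their means. By these probe sets Insig1, Stard4, Npc1 and Scap are highest in liver, Srebf2 is highest in brain (its other probe set, not drawn, is highest in liver), and Npc1l1 is near the floor in every tissue.

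Genes whose level followed a member most closely were looked up over the 24 group means, as a description in which tissue differences make up most of the range. Insig1 was followed by Upp2 (Pearson r = 0.992), Slc19a2 (0.988) and Bbox1 (0.986). For Stard4 they were Slc25a1, the citrate carrier that supplies sterol and fatty acid synthesis (0.988), Mtss1 (0.984) and Paqr9 (0.980), and for Npc1 Serpinf1 (0.989), Ccl9 (0.985) and Prg4 (0.981). Scap ran with Lpin2 (0.975), Hsd17b7, an enzyme of cholesterol synthesis (0.974), and Ttpa (0.973). Insig2 and Srebf2 had looser companions: Adra1b, Pstpip2 and Pir for Insig2 (0.928, 0.928 and 0.926), and Zfp523, Abhd17a and Grik5 for Srebf2 (0.924, 0.918 and 0.913).

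In liver after 14 months, the brightest probe sets of Srebf2 and Stard4 fell in Q10-fed mice relative to controls, while the other Srebf2 probe set did not pass. Srebf2 read 89.9, 76.3 and 74.3 on the 3 arrays of Q10-fed livers, against 119, 118 and 149.5 in control livers. All 3 Q10 arrays lay below all 3 control arrays. The log2 difference was -0.68 ± 0.18 (SE, 95% interval -1.05 to -0.30; limma adjusted p = 0.0336), or 1.60-fold lower. Srebf2 probe set 1426744_at read 83.0, 128 and 81.0 in Q10-fed livers, against 95.3, 103 and 89.6 in control livers, a log2 difference of -0.01 ± 0.20 (95% interval -0.44 to 0.41; limma adjusted p = 0.981). The groups overlapped at this probe set, so the fall rests on 1 of 2 Srebf2 probe sets.

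Stard4, the sterol carrier, read 895.5, 429 and 669 in Q10-fed livers, against 1011, 961 and 1046 in control livers. The groups did not overlap, and the second Q10 array was the lowest of the 18 liver arrays. The log2 difference was -0.66 ± 0.19 (limma adjusted p = 0.0492). A further Stard4 probe set, 1455011_at, read 341, 155.5 and 291 in Q10-fed livers, against 482, 508 and 424 in control livers, a log2 difference of -0.91 ± 0.21 (limma adjusted p = 0.0141), and the last one, 1429239_a_at, was -0.69 ± 0.29 without a call (limma adjusted p = 0.173).

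Insig1 read 1069.6, 464 and 703 in Q10-fed livers, against 1117, 1022 and 1456 in control livers. The Q10 array at 1070 lay within the control range and the other two below it. The log2 difference of -0.75 ± 0.27 was not called (limma adjusted p = 0.104), nor were those of Scap (-0.49 ± 0.27), Insig2 (0.34 ± 0.24), Npc1 (-0.07 ± 0.21) and Npc1l1 (-0.91 ± 0.78). By brightest probe sets 2 of 7 genes fell and none rose, where 6.21% of all probe sets were called, and the median of the 7 genes was -0.66, beside -0.10 for all probe sets. In bulk tissue, fewer cells of a type and less RNA per cell cannot be told apart.

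Both gene calls were narrow: they were kept without Q10 array 1, where Insig1 (-1.05) and Scap (-0.87) were called as well, and lost without any one of Q10 arrays 2 and 3 or control arrays 1, 2 and 3 (adjusted p by limma 0.0086 to 0.141 for Srebf2 and 8.8e-04 to 0.294 for Stard4). They were also lost when Q10 arrays 2 and 3 were left out together (log2 differences -0.52 and -0.17) and in other settings given in the closing section.

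Markers of other cells moved with this comparison. All 12 of 12 macrophage markers, 5 of 5 B cell markers, 5 of 6 neutrophil markers and 5 of 5 markers of dividing cells were higher on Q10, as were 2 of 5 T cell markers. The macrophage markers summed to 8275 to 23911 on the Q10 arrays, against 1690.5 to 3519 on the control arrays. No marker was at 0 on every array of a group, and single arrays were not checked for this. Hepatocyte markers, 5 tested, had 0 calls by limma and summed to 47937 to 55616 on Q10 and 54362 to 54863 on control diet. The ratio of the 3' to the 5' Actb control probe sets, a sign of RNA quality and labelling, was 2.21 ± 0.754 on Q10 and 3.83 ± 0.314 on control diet (SD, n = 3). With its log2 value as a covariate the differences of Srebf2 and Stard4 were -0.51 ± 0.25 and -0.43 ± 0.26 (limma adjusted p = 0.801 and 0.902). Stard4 probe set 1455011_at was then at -0.62 ± 0.27, its call lost as well (limma adjusted p = 0.756). The part of these cells and of the ratio in the result was otherwise not tested.

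**Figure D2:**
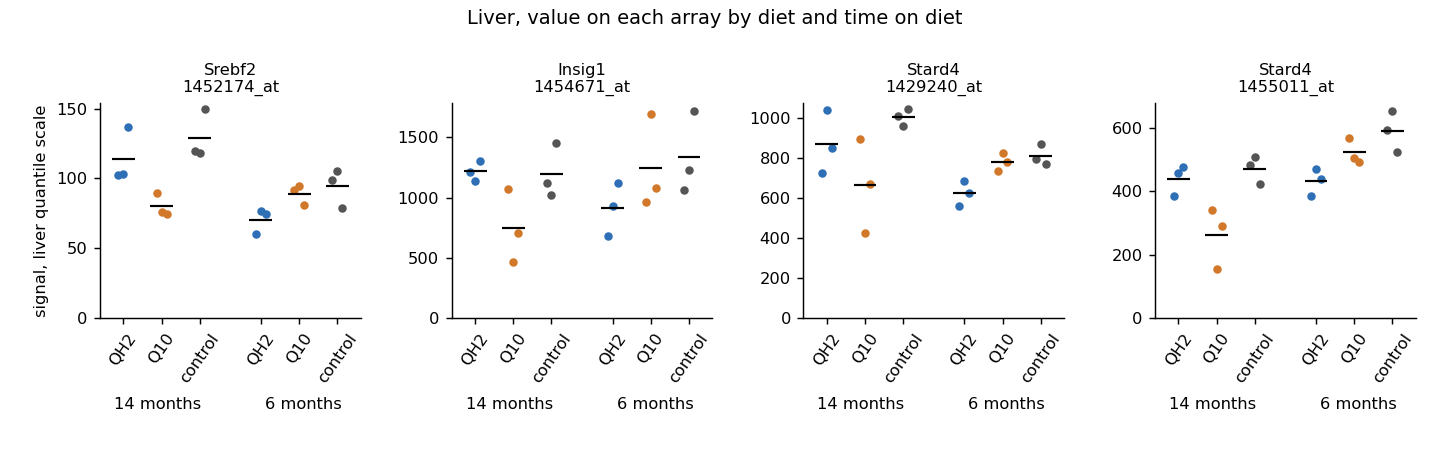
Liver signal (quantile scale of the liver arrays, axis from 0) of Srebf2, Insig1 and 2 probe sets of Stard4 on each array, by diet after 14 months (left) and 6 months (right); lines are means of 3 arrays. After 14 months the Q10 arrays of Srebf2 (brightest probe set) and of the 2 Stard4 probe sets drawn lie below all control arrays. Beside the brightest, the Stard4 probe set drawn is the one with the smaller adjusted p for Q10 against control at 14 months. The remaining one, 1429239_a_at, is not drawn and was not called. The Q10 and control arrays overlapped at the Srebf2 probe set not drawn, 1426744_at.

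The reduced and the oxidised form were then set against each other at the same dose and duration. At 14 months no gene passed by its brightest probe set between QH2-fed and Q10-fed livers (0 of 7 by limma, 3 at an unadjusted p under 0.05), where 9.74% of all probe sets were called. This count of 0 turned on 1 array and on the scaling. Without Q10 array 1 there were 4 calls, all higher on QH2, for Insig1 (1.09), Scap (0.92), Stard4 (0.69) and Srebf2 (0.58). With a common 75th percentile Insig1, Stard4 and Srebf2 were called, and with array weights 6 genes were, all but Insig2 and with Npc1 lower on QH2. Stard4 probe set 1455011_at, with 386, 457 and 477 in QH2-fed livers and 341, 155.5 and 291 in Q10-fed livers, was higher on QH2 by 0.81 ± 0.21 (limma adjusted p = 0.0193), without overlap. That call was lost without Q10 array 2 (log2 difference 0.48), QH2 array 2 (0.78) or QH2 array 3 (0.75). With the log2 Actb ratio as a covariate the difference was 0.37 ± 0.35 without a call (limma adjusted p = 0.9998). The call was also lost with the values as deposited (0.54), without limma's intensity trend and when only the groups compared were fitted (limma adjusted p = 0.521, 0.0565 and 0.197).

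Insig1 read 1212, 1140.4 and 1305 in QH2-fed livers, against the Q10 values above. The QH2 arrays lay above all Q10 arrays, with a log2 difference of 0.79 ± 0.27 (95% interval 0.23 to 1.35; limma adjusted p = 0.0687). Srebf2 read 103, 103 and 137 in QH2-fed livers, and differed from Q10 by 0.50 ± 0.18 (95% interval 0.12 to 0.88; limma adjusted p = 0.0882). The 95% interval of the difference between the forms was 0.03 to 0.85 for the brightest Stard4 probe set, -0.03 to 1.10 for Scap, -0.52 to 0.48 for Insig2 and -0.61 to 0.27 for Npc1. The 12 macrophage markers were all lower on QH2, summing to 2226 to 3455 there, and the Actb ratio was 5.35 ± 1.87 on QH2.

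QH2 against control gave 0 calls among the 7 genes in liver at 14 months (limma, and 0 of 27 tests over the 4 tissues at an unadjusted p under 0.05), where 0% of all probe sets were called. Srebf2 differed by -0.18 ± 0.18, Insig1 by 0.04 ± 0.27 and Stard4 by -0.22 ± 0.19, and the intervals of Srebf2 (-0.56 to 0.20) and Stard4 (-0.63 to 0.19) both include 0. The QH2 and Q10 comparisons share their control arrays.

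In kidney at 14 months the forms of coenzyme Q10 differed at 2 of 3 Stard4 probe sets. Probe set 1455011_at read 228, 219 and 263 in QH2-fed kidneys, against 139.6, 149.9 and 146 in Q10-fed kidneys. The groups did not overlap, and the log2 difference was 0.70 ± 0.12 (limma adjusted p = 0.00375), kept without any 1 of the 6 arrays. The call was lost with the values as deposited (0.63) and when only the groups compared were fitted (limma adjusted p = 0.504 and 0.172). Probe set 1429239_a_at read 116, 87.9 and 126 in QH2-fed kidneys and 69.5, 66.9 and 66.8 in Q10-fed kidneys, a difference of 0.68 ± 0.18 (limma adjusted p = 0.032). This one was lost without Q10 array 2 or 3 or QH2 array 1 or 3 (adjusted p up to 0.115 by limma). It was also lost with the values as deposited (0.55), without limma's intensity trend and when only the groups compared were fitted (limma adjusted p = 0.716, 0.0586 and 0.222).

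The brightest Stard4 probe set read 443, 588 and 668 in QH2-fed kidneys and 424, 392.5 and 461 in Q10-fed kidneys. The lowest QH2 array, at 443, lay inside the Q10 range, and the difference of 0.39 ± 0.13 was not called (limma adjusted p = 0.0776). Insig1 read 141, 206 and 261 in QH2-fed kidneys and 150.1, 112.5 and 118 in Q10-fed kidneys, with a difference of 0.64 ± 0.22 (limma adjusted p = 0.0924). Npc1 pointed the other way, at 48.3, 49.1 and 59.7 on QH2 and 85.7, 64.2 and 60.1 on Q10 (-0.40 ± 0.17; limma adjusted p = 0.182). By brightest probe sets 0 of 6 tested genes were called by limma (3 at an unadjusted p under 0.05), where 6.04% of all probe sets were called.

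Macrophage markers were lower on QH2 in this comparison too, 4 of 10 tested, with sums of 2159 to 2783 on QH2, 3027 to 14054 on Q10 and 2232 to 5476 on control diet. Against control, no gene was called in kidney on Q10 (background 0.67%, 0 of 6 genes at an unadjusted p under 0.05) or on QH2 (background 0%). The part of the marked cells in the Stard4 difference was not tested.

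**Figure D3:**
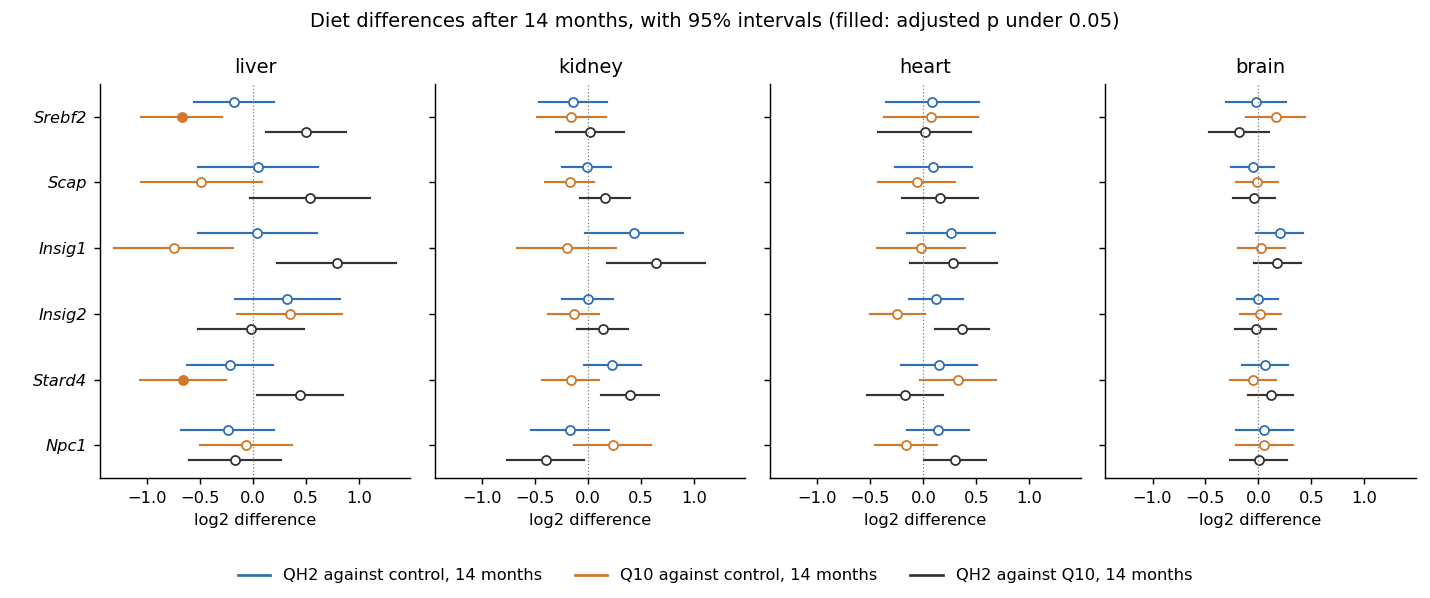
Log2 differences (horizontal axis) of the brightest probe set of 6 genes after 14 months, for QH2 against control, Q10 against control and QH2 against Q10, in 4 tissues; bars are 95% intervals and filled points have a limma adjusted p under 0.05. The filled points are Srebf2 and Stard4 in liver on Q10, and the intervals are on the whole narrowest in brain.

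In heart and brain no diet comparison at 14 months called any of the 7 genes: 0 of 21 tests in each by limma, with 2 in heart and 0 in brain at an unadjusted p under 0.05. The share of all probe sets called was 0% for QH2 against control, 0% for Q10 against control and 0% for QH2 against Q10 in heart, and 0.0111%, 0% and 0% for the same comparisons in brain. In brain the interval of the QH2 to Q10 difference was -0.47 to 0.10 for Srebf2, -0.05 to 0.40 for Insig1 and -0.10 to 0.33 for Stard4. In heart it was 0.11 to 0.62 for Insig2, which read 454.5, 649 and 635 on QH2 and 462, 452 and 419 on Q10 (limma adjusted p = 0.229).

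At 6 months no diet comparison called any member in any tissue, 0 of 81 tests over 12 comparisons by limma, with 9 at an unadjusted p under 0.05. The shares of all probe sets called by limma at 6 months were, for QH2 against control, Q10 against control and QH2 against Q10 in turn, 0%, 0.81% and 0.988% in liver, and 0.192%, 0% and 0.292% in kidney. In heart they were 0%, 0% and 0.0666%, and in brain 0%, 0% and 0%.

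Among these values, Srebf2 in liver read 60, 76.5 and 74.5 on QH2, 91.8, 94.6 and 80.7 on Q10 and 98.8, 105 and 78.9 on control diet. The QH2 arrays lay below all arrays of the other diets, with a difference from control of -0.42 ± 0.18 (limma adjusted p = 0.668). Stard4 read 560.5, 688.5 and 626 on QH2, 735, 824 and 783 on Q10 and 794, 869.5 and 772 on control diet, again with all QH2 arrays lowest (-0.38 ± 0.19 for QH2 against control, limma adjusted p = 0.721). In heart, Stard4 at 6 months read 75.9, 71.4 and 65.2 on Q10, against 37.9, 53.5 and 45.4 on control diet (0.63 ± 0.17; limma adjusted p = 0.512). None of these 3 differences passed the test.

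Averaged over both durations, Q10 against control called 0 of the 7 genes in liver (limma, 3 at an unadjusted p under 0.05, background 0.84%), while Insig1, Scap, Srebf2 and Stard4 were called, all lower, without Q10 array 1 of 14 months. The difference of the Q10 effect between 14 and 6 months called 0 as well (2 at an unadjusted p under 0.05, background 2.33%), at -0.60 for Srebf2 and -0.60 for Stard4 with limma adjusted p = 0.236 and 0.269. The fall of Srebf2 and Stard4 on Q10 at 14 months was thus not shown to differ from the difference at 6 months.

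With all arrays in, it did differ between tissues. Set against the mean of the same difference in kidney, heart and brain, in the fit of all arrays, the Q10 difference in liver stood at -0.64 ± 0.19 for Srebf2 (limma adjusted p = 0.0341) and -0.58 ± 0.15 for Stard4 (adjusted p = 0.0126). Of the 6 genes tested 2 passed, where 6.65% of all probe sets did. Insig1 (-0.57 ± 0.24, limma adjusted p = 0.142) was not called. The call of Srebf2 was lost when all arrays of replicate 1, of replicate 2 or of replicate 3 were left out (limma adjusted p = 0.0579, 0.307 and 0.165), and that of Stard4 without replicate 2 or 3 (0.445 and 0.239). Without replicate 1 Scap was called in addition (-0.68, limma adjusted p = 0.0414). For QH2 against Q10 none of the 6 genes passed this test in liver, where 8.66% of all probe sets did, though Scap and Stard4 did without replicate 1 (limma adjusted p = 0.0282 and 0.0349). Srebf2 probe set 1426744_at was at -0.08 ± 0.27 in the Q10 test (limma adjusted p = 0.903).

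The enzymes of cholesterol synthesis, the targets of SREBP2, gave the same comparisons. Of the 17 tested enzymes 13 fell and none rose in liver on Q10 at 14 months, with a median log2 difference of -0.97, beside -0.10 for all probe sets, of which 6.21% were called. The enzymes were not run with the Actb covariate, without Q10 arrays or in the other alternative settings. The 4 with the smallest p were Fdft1, squalene synthase (-1.14 ± 0.23), Msmo1 (-1.53 ± 0.31), Hsd17b7 (-1.21 ± 0.28) and Mvd (-1.65 ± 0.38). Between QH2 and Q10, 9 of 17 were higher on QH2 in liver, with a median of 0.76 beside 0.08 for all probe sets (9.74% called), and 3 of 17 were higher on QH2 in kidney (background 6.04%), Pmvk by 0.76 ± 0.14, Mvk by 0.82 ± 0.24 and Nsdhl by 0.37 ± 0.11.

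Of 12 tested genes that process SREBP or take part in sterol-regulated degradation, 0 were called by limma in liver on Q10 against control (background 6.21%), and 2 were higher on QH2 than on Q10 in liver (background 9.74%) and 2 in kidney (background 6.04%). Of the tested genes of cholesterol transport and efflux 0 of 13 were called in liver on Q10, and 3 of 13 were lower on QH2 than on Q10 in that tissue, beside the same shares of all probe sets. These lists were put together with earlier results of these data known, so their direction is not independent evidence.

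Among the diet and duration comparisons within a tissue, that of 14 with 6 months gave the members' smallest p-values, in brain. Over all diets and by brightest probe sets Stard4, Insig1 and Npc1 rose and Srebf2 and Scap fell, though these last 2 did not fall in the values as deposited, 5 of 7 genes in all, where 56.2% of all probe sets were called, so a call in this comparison was the common case. Stard4 had a lowest, median and highest value of 268, 294 and 308 over the 9 arrays at 14 months, against 153.5, 179 and 203 over the 9 arrays at 6 months. The ages did not overlap, and the log2 difference was 0.71 ± 0.059 (limma adjusted p = 1.4e-08). Insig1, the ER retention factor, had 288, 309 and 353 at 14 months, against 183, 208.5 and 246.5 at 6 months, again without overlap (0.56 ± 0.061; limma adjusted p = 3.5e-07).

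Npc1 had 117, 131 and 146 in 14-month brains, against 91.7, 107 and 129 in 6-month brains (0.33 ± 0.075; limma adjusted p = 0.00113), and 1 array at 6 months, on Q10, reached into the older range. Srebf2 had 243, 277 and 336.5 at 14 months, against 314, 362 and 478 at 6 months (-0.48 ± 0.077; limma adjusted p = 3.4e-05). The 2 highest older arrays, both on Q10, overlapped the lowest younger one, on QH2, and Srebf2 probe set 1426744_at was not called (-0.09 ± 0.07; limma adjusted p = 0.291). Scap had 329, 374 and 406 at 14 months, against 384.5, 415 and 516 at 6 months (-0.19 ± 0.055; limma adjusted p = 0.00755). The calls of these 5 genes were kept without any 1 of the 18 arrays. In the values as deposited, where the older brain arrays were brighter as a whole (median of all probe sets 0.42), Srebf2 was at 0.03 and Scap at 0.34, that is -0.39 and -0.08 relative to that median, and Stard4 and Insig1 were at 0.76 and 0.63 relative to it.

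On control diet alone 4 of 7 genes changed in brain, where 32.8% of all probe sets were called. Stard4 read 300.1, 289 and 276 at 14 months and 203, 189 and 153.5 at 6 months (0.67 ± 0.10; limma adjusted p = 8.7e-05). Insig1 read 309, 292.5 and 298 at 14 months and 208.5, 246.5 and 190.0 at 6 months (0.49 ± 0.11; limma adjusted p = 0.00186). Srebf2 read 289.6, 291 and 243 at 14 months and 473, 448 and 352 at 6 months (-0.62 ± 0.13; limma adjusted p = 0.00168). The ages did not overlap at these brightest probe sets, but how many of all probe sets were without overlap was not counted. Srebf2 probe set 1426744_at was at -0.09 ± 0.12 without a call (limma adjusted p = 0.624). Scap read 371, 403 and 374 at 14 months and 438, 427 and 516 at 6 months (-0.26 ± 0.095; limma adjusted p = 0.0424), a call lost without any of the 3 older arrays or the third younger one (adjusted p up to 0.206) and at 0.19 in the values as deposited, where the median of all probe sets was 0.33.

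**Figure D4:**
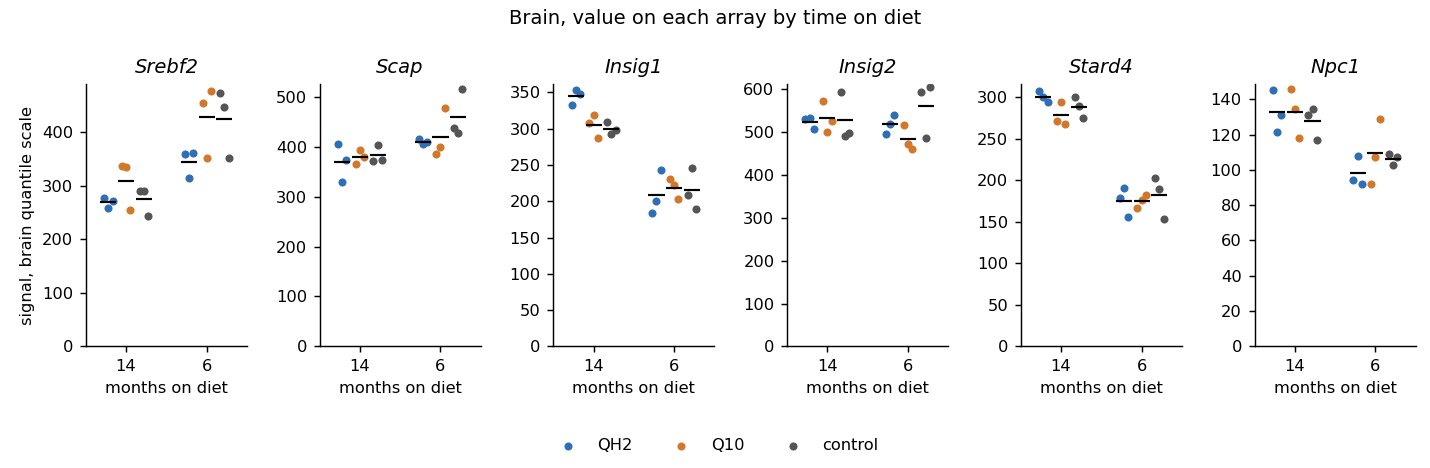
Brain signal (quantile scale of the brain arrays, axis from 0) of 6 genes on each array after 14 and 6 months, with QH2, Q10 and control side by side; lines are means of 3 arrays. Stard4 and Insig1 are higher at 14 months on every diet without overlap, and Srebf2 is lower on average on each diet on this scale, while in the values as deposited it was at 0.03 over all diets.

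Glial markers moved with the brain comparison: 4 of 4 oligodendrocyte markers and 4 of 5 astrocyte markers were higher at 14 months and 1 astrocyte marker lower, while 1 of 4 neuron markers was higher and 2 lower. On control diet the oligodendrocyte markers summed to 14259 to 16787 at 14 months, against 11202 to 13829.8 at 6 months. The neuron markers there summed to 19984 to 20743 at 14 months, against 21003 to 24456 at 6 months. No marker was at 0 on every array of a group. The Actb ratio ran from 1.66 to 1.79 at 14 months and from 1.75 to 1.95 at 6 months. With it as a covariate Stard4, Insig1 and Srebf2 kept their call over all diets, and Stard4 and Insig1 on control diet. The part of the marked cells was not tested.

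The difference between brain and the other tissues was tested itself. Over all diets the brain change, minus the mean change of the other 3 tissues, was -0.68 ± 0.11 for Srebf2 (limma adjusted p = 2.5e-06), 0.70 ± 0.14 for Insig1 (4.0e-05), 0.61 ± 0.088 for Stard4 (1.4e-07) and -0.31 ± 0.11 for Scap (0.0251). These are 4 of 6 tested genes, where 34.7% of all probe sets passed, and on control diet 3 of 6 passed (Srebf2, Insig1 and Stard4), where 13.6% did. When all arrays of 1 replicate number were left out, Srebf2, Insig1 and Stard4 kept their call over all diets each time, and Scap lost it without replicate 1 or 3 (limma adjusted p = 0.0609 and 0.396), with Insig2 called in addition without replicate 1. On control diet Srebf2 lost its call without replicate 1 (0.054), and Insig1 (0.0928 and 0.231) and Stard4 (0.0747 and 0.253) lost theirs without replicate 2 or 3, while Scap gained one without replicate 2. Srebf2 probe set 1426744_at did not pass over all diets (-0.26 ± 0.15; limma adjusted p = 0.191).

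Liver went the other way for Srebf2. Over all diets it had 74.3, 103 and 149.5 in 14-month livers, against 60, 80.7 and 105 in 6-month livers (lowest, median and highest of 9). The ages overlapped, and the difference was 0.33 ± 0.10 (limma adjusted p = 0.0317). The other Srebf2 probe set, 1426744_at, was higher by 0.71 ± 0.12 (limma adjusted p = 4.1e-04). The call of the brightest probe set was lost without 1 of 5 arrays, the third of control at either age, the third of Q10 at 6 months, the first of QH2 at 6 months or the third of QH2 at 14 months (adjusted p up to 0.0724 by limma).

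Insig2 fell in older livers, with 242, 306 and 562 at 14 months, against 399.7, 471.5 and 611 at 6 months (-0.55 ± 0.14; limma adjusted p = 0.0081), kept without any 1 of 18 arrays. Its probe set 1417980_a_at was not called (-0.24 ± 0.20; limma adjusted p = 0.434). The first QH2 array and the first Q10 array of the older livers stood inside the younger range. These 2 of 7 genes compare with 20.8% of all probe sets. On control diet alone 0 of 7 genes were called in liver by limma (2 at an unadjusted p under 0.05), where 7.36% were. Against the other tissues the liver change was 0.42 ± 0.11 for Srebf2, -0.44 ± 0.096 for Insig2 and -0.32 ± 0.10 for Npc1 (limma adjusted p = 0.00491, 7.8e-04 and 0.0173), 3 of 6 genes beside 19.5% of all probe sets over all diets and 0 of 6 beside 8.91% on control diet. When all arrays of 1 replicate number were left out, Npc1 lost this call each time (limma adjusted p = 0.0607, 0.174 and 0.0707 without replicates 1, 2 and 3), Srebf2 lost it without replicate 1 or 3 (0.0637 and 0.107) and Insig2 without replicate 2 (0.0555). Without replicate 1 Insig1 and Stard4 were called in addition, and Scap was without replicate 2.

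The liver ages also depended on Q10 arrays 2 and 3 at 14 months, from the group whose macrophage markers summed to 8275 to 23911. When these 2 arrays were left out, the difference of Insig2 was -0.42 without a call (limma adjusted p = 0.0553), while Stard4 (0.33, adjusted p = 0.0123) and Scap (0.46, adjusted p = 0.0122) were called and Srebf2 remained called (0.40, adjusted p = 0.0318). The part of the marked cells in these age differences was otherwise not tested.

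In kidney Npc1 rose, with 48.3, 60.1 and 85.7 at 14 months, against 36.5, 40.2 and 53.2 at 6 months (0.51 ± 0.10; limma adjusted p = 7.2e-04), a call kept without any 1 of 18 arrays. The first Q10 array and the second control array of the younger kidneys overlapped with 2 older arrays, both on QH2. Stard4 rose by 0.21 ± 0.075 by its brightest probe set (limma adjusted p = 0.0327), a call lost without any one of 10 of the 18 arrays: controls 1 and 2, Q10 2 and 3 and QH2 1 and 2 at 6 months, and control 1, Q10 3 and QH2 2 and 3 at 14 months (adjusted p up to 0.0754 by limma). These 2 of 6 tested genes compare with 40.9% of all probe sets.

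On control diet 0 of 6 genes were called in kidney by limma (2 at an unadjusted p under 0.05), beside 9.38%, and Insig1 read 115, 143 and 185 at 14 months and 189, 210.5 and 301 at 6 months (-0.65 ± 0.22; limma adjusted p = 0.0704). Against the other tissues the kidney change was -0.43 ± 0.14 for Insig1 and 0.28 ± 0.10 for Npc1 (limma adjusted p = 0.0253 and 0.0484), 2 of 6 genes beside 15.4%. Neither kidney call was kept when all arrays of replicate 1, of replicate 2 or of replicate 3 were left out (0 genes each time). Macrophage markers were higher at 14 months in kidney, 6 of 10 tested, with sums of 2232 to 5476 at 14 months and 1921 to 2226 at 6 months on control diet, and their part in the Npc1 change was not tested.

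In heart Npc1 alone was called, at 98.8, 129.7 and 152 at 14 months, against 90.4, 108 and 116 at 6 months (0.24 ± 0.082; limma adjusted p = 0.0466), 1 of 7 genes beside 18.8% of all probe sets. The call was kept without control 2 at 6 months, Q10 2 at 14 months or QH2 1 at 14 months, and lost without any one of the other 15 arrays (adjusted p up to 0.0895 by limma). On control diet 0 of 7 were called in heart (0 at an unadjusted p under 0.05, limma), beside 2.05%. Against the other tissues 0 of 6 genes were called in heart by limma, beside 9.18%.

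Probe sets of the same gene disagreed on duration for Stard4 and Insig2. In kidney the brightest Stard4 probe set was higher at 14 months, while 1455011_at (-0.48 ± 0.069, limma adjusted p = 4.1e-05) and 1429239_a_at (-0.49 ± 0.10, adjusted p = 0.00103) were lower. In liver these 2 were lower as well (-0.45 ± 0.12 and -0.78 ± 0.17; limma adjusted p = 0.0115 and 0.00325), and the brightest one was at 0.16 ± 0.11 without a call. With the values as deposited none of these falls was called. In kidney 1455011_at and 1429239_a_at were then at -0.10 and -0.05 (limma adjusted p = 0.634 and 0.815), where all probe sets had a median of 0.41. In liver they were at -0.33 and -0.60 (limma adjusted p = 0.408 and 0.129), where that median was 0.20. In brain all 3 were higher, by 0.71 ± 0.059 for the brightest, 0.34 ± 0.061 for 1455011_at and 1.11 ± 0.10 for 1429239_a_at.

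Insig2 probe set 1417982_at was lower at 14 months in every tissue, at -0.23 ± 0.051 in brain, -0.41 ± 0.096 in heart, -0.54 ± 0.07 in kidney and -0.83 ± 0.16 in liver (limma adjusted p = 9.1e-04, 0.00448, 1.7e-05 and 0.00145). With the values as deposited, however, it was higher in heart (0.43) and brain (0.27), where all probe sets had medians of 0.81 and 0.42. In those values it was lower without a call in kidney (-0.14) and liver (-0.71; limma adjusted p = 0.480 and 0.0517). Probe set 1417980_a_at was higher in heart by 0.51 ± 0.094 and in brain by 0.78 ± 0.077 (limma adjusted p = 7.3e-04 and 1.0e-07). The brightest, 1417981_at, was at 0.05 ± 0.071 in heart and 0.02 ± 0.053 in brain without a call. On control diet alone 1417980_a_at was higher in brain (0.69 ± 0.13; limma adjusted p = 7.0e-04) and 1417982_at lower (-0.25 ± 0.088; limma adjusted p = 0.0331), and in kidney Stard4 probe set 1455011_at was lower (-0.55 ± 0.12; limma adjusted p = 0.0104). As deposited this kidney value was -0.14 without a call (limma adjusted p = 0.743), where all probe sets had a median of 0.44. Which transcripts each probe set reads was not analysed here, so a direction for Insig2, or for Stard4 outside brain, holds for a probe set and not for the gene.

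The dim probe set 1442885_at of Scap was tested in liver alone. It averaged 11.8 at 14 months and 6.01 at 6 months, a level close to the floor of the array, and its call (0.98 ± 0.34, limma adjusted p = 0.0475) was lost without any one of 16 of the 18 arrays.

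**Figure D5:**
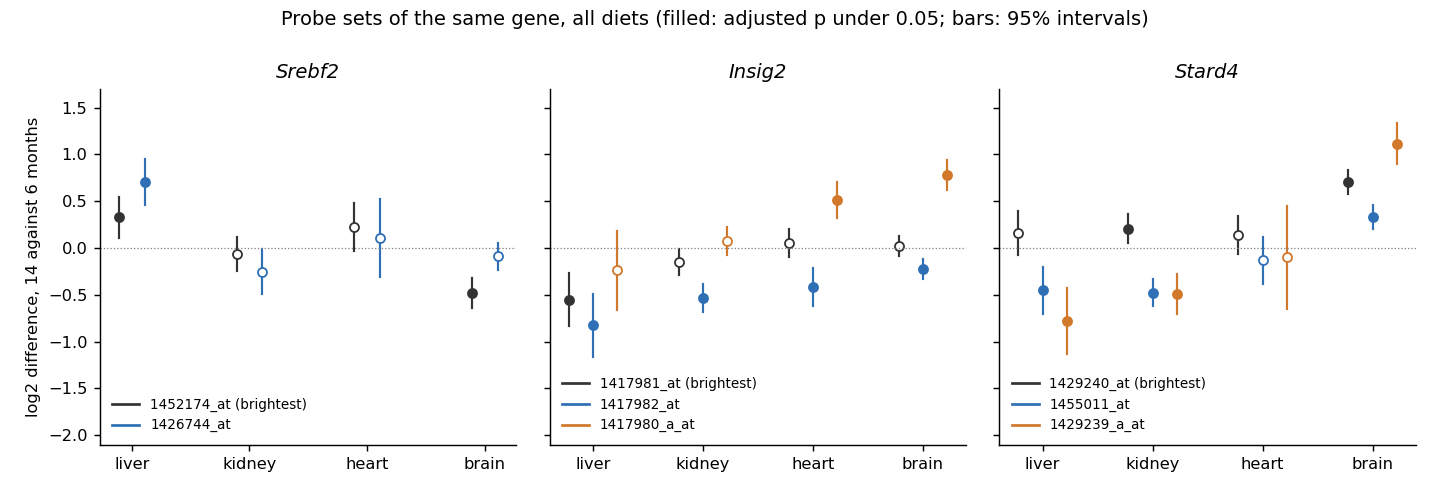
Log2 difference of 14 against 6 months over all diets (vertical axis) for each probe set of Srebf2, Insig2 and Stard4 in 4 tissues; bars are 95% intervals and filled points have a limma adjusted p under 0.05. Stard4 probe sets part in liver and kidney and go together in brain, and Insig2 probe sets part in heart and brain.

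The enzymes of cholesterol synthesis were counted over the same ages, beside the share of all probe sets called. In brain 6 of 17 were higher and 3 lower at 14 months (background 56.2%), with Fdps at 0.47 ± 0.053, Ebp at 0.50 ± 0.059, Idi1 at 0.34 ± 0.071 and Sqle, squalene epoxidase, at -0.25 ± 0.06. In kidney 9 of 17 were lower and none higher (background 40.9%), with a median of -0.29 beside -0.03 for all probe sets, led by Nsdhl (-0.54 ± 0.061) and Fdps (-1.16 ± 0.15). In liver (background 20.8%) 2 were higher, Idi1 (0.84 ± 0.16) and Dhcr7 (0.57 ± 0.12), and 1 lower, Sc5d (-0.46 ± 0.15). In heart none was higher and 2 were lower (background 18.8%). Adjusted p for the named enzymes ran from 6.1e-07 to 0.0336 by limma. Of the 12 tested genes of SREBP processing and degradation, 1 was higher and 3 lower in liver, 2 higher and 1 lower in kidney, 3 higher and 2 lower in heart, and 2 higher and 2 lower in brain. Of the genes of transport and efflux, 0 were higher and 1 lower of 13 in liver, 3 higher and 1 lower of 12 in kidney, 2 higher and 1 lower of 13 in heart, and 4 higher and 3 lower of 11 in brain. The same 4 backgrounds hold for both of these lists.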

How the data were processed

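Total RNA of 72 mouse tissue samples was labelled as biotinylated cRNA and hybridised to 1-colour Affymetrix arrays, per the labels' protocols. The authors deposited linear signal intensity per probe set, made with GCOS per the submitters' processing notes. The version and the scaling and background choices are not stated in the sources used here. From these intensities 64 control probe sets were left out, signals were quantile normalised within a tissue and log2(signal + 1) was taken. Probe sets under the 40th percentile of mean signal were dropped, leaving 27022 of 45037, and the 6 groups of a tissue were fitted together with limma 3.58.1 in R 4.3.3 (intensity trend, Benjamini-Hochberg adjustment). Tissue pairs and differences between tissues came from 1 fit of all 72 arrays, quantile normalised together, which treats arrays of different tissues as separate mice because no label says otherwise. Named genes are the 7 members, by their brightest probe set over all arrays, the 4 enzymes with the smallest p per comparison where described, and the 3 genes most like each member. Group and replicate numbers came from the sample titles. The p-values rest on the spread between the 3 arrays of a group, pooled over the 6 groups of a tissue. In the fit of all arrays it was pooled over the 24 groups. In both it was moderated by limma over all tested probe sets. An exact permutation test of 3 against 3 cannot go below 0.1. Members, lists and motifs were chosen with earlier results of these data known. The fit was tested on simulated data. Promoters came from the RefSeq table (GRCm38.p6). Alternatives tried were values as deposited, other scalings, filters, offsets and fits, and a replicate block. Each array was also left out in turn or, in the fit of all arrays, all arrays of 1 replicate number. These alternatives were run for the members and for counts of all probe sets called, and not for the gene lists.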

Additional observations from a re-analysis of the deposited data

Results flagged for a closer look

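In these results the change in 1 tissue differed from the mean change of the other 3 tissues, by a limma test of that difference in the fit of all arrays, each gene by its brightest probe set. For Q10 against control at 14 months in liver they were Srebf2 (-0.64, adjusted p = 0.0341) and Stard4 (-0.58, adjusted p = 0.0126). For 14 against 6 months on control diet in brain they were Srebf2 (-0.89, adjusted p = 9.6e-04), Insig1 (0.75, adjusted p = 0.0241) and Stard4 (0.56, adjusted p = 0.00903).

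Over all diets the difference between 14 and 6 months stood apart in liver for Srebf2 (0.42, adjusted p = 0.00491), Insig2 (-0.44, adjusted p = 7.8e-04) and Npc1 (-0.32, adjusted p = 0.0173). In kidney it did so for Insig1 (-0.43, adjusted p = 0.0253) and Npc1 (0.28, adjusted p = 0.0484). In brain it did so for Srebf2 (-0.68, adjusted p = 2.5e-06), Scap (-0.31, adjusted p = 0.0251), Insig1 (0.70, adjusted p = 4.0e-05) and Stard4 (0.61, adjusted p = 1.4e-07), all by limma.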

How the results depend on the processing

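The cause of each change below was not tested. Counts are genes called, with the count under the alternative first and the reported count after it. Small changes of a count that stayed positive are not listed, nor are swaps of genes at an equal count. For example, Scap in brain on control diet also lost its call with a common 75th percentile and without a filter (limma adjusted p = 0.203 and 0.0583). In kidney over all diets a common 75th percentile cost Stard4 its call and gave Insig2 one (limma adjusted p = 0.303 and 0.0096).

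With values as deposited the count in liver was 0 against 2 for Q10 against control at 14 months and 0 against 2 for 14 against 6 months over all diets. In the same values 14 against 6 months gave 1 against 0 in kidney on control diet, 6 against 0 in heart on control diet, 6 against 1 in heart over all diets and 2 against 4 in brain on control diet. Differences between tissues gave 0 against 2 (liver, Q10 against control, 14 months), 0 against 3 (brain, control diet), 0 against 2 (kidney, all diets) and 4 against 0 (heart, all diets).

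With a common 75th percentile QH2 against Q10 at 14 months gave 3 against 0 in liver and 1 against 0 in kidney, and 14 against 6 months gave 1 against 2 in liver and 0 against 1 in heart over all diets and 1 against 0 in kidney on control diet. Differences between tissues there gave 4 against 0 (liver, QH2 against Q10), 1 against 0 (liver, control diet), 5 against 3 (liver, all diets) and 1 against 2 (kidney, all diets). For Q10 against control in liver at 14 months, quantile normalisation of all arrays, no filter and the replicate block gave 1 against 2, while no trend, only the groups compared, the Actb covariate and a fit lacking Q10 arrays 2 and 3 gave 0 against 2 and array weights 5 against 2.

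Without a filter 14 against 6 months over all diets gave 1 against 2 in liver and 0 against 1 in heart. Without a trend it gave 1 against 2 in kidney. With array weights liver gave 6 against 0 (QH2 against Q10, 14 months), 3 against 0 (Q10, both durations) and 3 against 0 (Q10 effect), kidney 2 against 0 (QH2 against Q10, 14 months) and 1 against 0 (ages, control diet) and heart 1 against 0 (QH2 against Q10, 14 months). Fitting only the groups compared gave 1 against 0 in liver for the ages on control diet, as did the Actb covariate, which gave 2 against 4 in brain on control diet and 3 against 5 over all diets. An offset of 16 gave 1 against 0 (liver, control diet), 1 against 2 (kidney, all diets) and 1 against 0 (heart, all diets) for differences between tissues.

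With the replicate number as a block the heart count over all diets was 0 against 1. The labels do not say whether a number marks a shared animal or batch. Within a tissue, deviations of same-numbered arrays from different groups had a median correlation of 0.0049 in brain, -0.0066 in heart, -0.0014 in kidney and -0.0036 in liver (45 pairs each). Such arrays come from different mice, so these values cannot show a shared animal. Between tissues, arrays of the same diet, duration and number had a median of 0.0058 over 108 pairs. The highest was 0.258, and 6 pairs were over 0.1.

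Leaving out 1 array gave 0 to 4 genes for Q10 against control and for QH2 against Q10 in liver at 14 months, 0 to 4 for Q10 over both durations and 0 to 1 for the Q10 effect. For the ages over all diets it gave 1 to 3 in liver, 1 to 2 in kidney and 0 to 1 in heart, and on control diet 3 to 4 in brain. QH2 against Q10 at 14 months gave 0 to 2 in kidney and 0 to 1 in heart. For tissue pairs and differences between tissues, all arrays of 1 replicate number were left out at a time instead of 1 array. Tissue pairs of liver with kidney and heart and of kidney with brain then gave 5 to 6. Differences between tissues gave 0 to 1 for heart QH2 against control at 6 months, 0 to 2 for liver Q10 against control, liver QH2 against Q10 and heart QH2 against Q10 at 14 months, 1 to 2 for brain on control diet, and over all diets 3 to 4 in brain, 1 to 3 in liver, 0 to 1 in heart and 0 in kidney.

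Of 8640 alternative values of members 179 lost a call and 97 gained one with the direction kept. Another 13 turned direction, all of these as deposited, and some of them lost their call as well. A further 380, called in neither setting, moved by more than the SE of the reported value. A change of sign was counted as a turn where the reported or the alternative value was called. All were called as reported except Insig2 for liver against heart, called only as deposited (limma adjusted p = 0.0176). For 14 against 6 months the turned values were Insig2 probe set 1417982_at in heart (0.43) and brain (0.27, and 0.16 on control diet), Scap in brain (0.34, and 0.19 on control diet) and Srebf2 in brain (0.0255). Between tissues they were Srebf2 for liver against kidney (-0.71) and heart (-0.0426), Insig2 for liver against heart (-0.29) and brain (-0.39), Scap for kidney against brain (-0.0947), and Insig2 (-0.10) and Npc1 (-0.0605) for heart against brain.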

Other observations

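Within liver, where tissue differences play no part, the gene whose level followed each member most closely over the 18 arrays was Marchf2 for Srebf2 (Pearson r = 0.89), Gas6 for Scap (0.94), Rmdn2 for Insig1 (0.94), Cldn1 for Insig2 (0.84), Plekhb1 for Stard4 (0.91), Kif21a for Npc1 (0.84) and Col4a3 for Npc1l1 (0.80). These are descriptions over arrays that share diets and ages. Each gene was picked as the highest r among all tested probe sets over 18 arrays, and no test was made. Npc1l1 was dim in liver, with a mean of 10.4 at 14 months and 9.05 at 6 months. In heart, values as deposited put the members other than Npc1l1 0.07 to 0.29 above the median of all probe sets for 14 against 6 months over all diets, and Npc1l1 at -0.42 relative to it, where that median was 0.81.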
